A study of Homo sapiens with 8 samples.

Results

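The transcripts of 10 genes for the CCR4-NOT deadenylase and the BTG/TOB proteins that bind it were followed in the human promyelocytic leukaemia line HL-60 under 4 treatments. The genes were taken by symbol from the name column of a table with 60240 genes: CNOT1, CNOT2, CNOT3, CNOT6, CNOT6L, CNOT7, CNOT8, BTG1, TOB1 and TOB2. Each symbol matched 1 gene, and all 10 passed the filter on low values. Cells received decitabine and RG3039 together (the combination), decitabine alone, RG3039 alone, or the solvent DMSO, with 2 libraries per group. Decitabine, a cytosine nucleoside analogue that traps DNA methyltransferases, was given at 100 nM on 3 successive days, the first being day 0. RG3039, an inhibitor of the scavenger decapping enzyme DcpS, was given at 2 µM on day 0. RNA was taken at 72 h and read from the 3′ end of polyadenylated transcripts. All cells were wild-type HL-60, and the wells were seeded in duplicate, so the spread between replicates is that between such wells and may be technical.

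CCR4-NOT is the main cytoplasmic machine that shortens the poly(A) tails of mRNAs, a step that precedes decapping and decay. It holds a pair of nuclease classes, the CCR4 type (CNOT6 or its paralog CNOT6L) and the CAF1 type (CNOT7 or its paralog CNOT8), on the large scaffold CNOT1, with CNOT2 and CNOT3 forming a structural module at one end. BTG and TOB proteins are anti-proliferative adaptors that bind the CAF1 nuclease. TOB proteins also bind poly(A)-binding protein, and BTG1 is recurrently mutated in B-cell malignancies.

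In the combination, transcripts of the nuclease CNOT6 and the adaptor BTG1 were higher than in DMSO, and those of the module subunit CNOT2 and the adaptor TOB2 were lower. RG3039 alone had higher CNOT6 and BTG1 and lower CNOT2 and CNOT1 than DMSO. Decitabine alone had higher BTG1. The differences of CNOT6 and BTG1 in the combination and in RG3039 were kept under every alternative setting given below. Each of the others was lost under some of them. The promoters of CNOT6 and BTG1, the genes with the smallest p over the 3 treatments, are shown because one of the drugs acts on the methylation of CG sites and the CG content of a promoter gives the number of such sites. Each runs 5′ to 3′ on the strand of its gene, from 250 bases before to 50 bases after the annotated start (RefSeq, GRCh38.p14), with every CG in capitals. CNOT6 lies at chr5:180494129-180494428 on the plus strand and BTG1 at chr12:92145797-92146096 on the minus strand.
CNOT6: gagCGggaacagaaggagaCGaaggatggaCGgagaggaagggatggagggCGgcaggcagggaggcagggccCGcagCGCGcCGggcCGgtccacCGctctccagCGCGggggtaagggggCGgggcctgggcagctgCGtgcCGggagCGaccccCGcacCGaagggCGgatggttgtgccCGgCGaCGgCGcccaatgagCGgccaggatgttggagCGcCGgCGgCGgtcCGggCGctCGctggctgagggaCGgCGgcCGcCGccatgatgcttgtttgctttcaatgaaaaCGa
BTG1: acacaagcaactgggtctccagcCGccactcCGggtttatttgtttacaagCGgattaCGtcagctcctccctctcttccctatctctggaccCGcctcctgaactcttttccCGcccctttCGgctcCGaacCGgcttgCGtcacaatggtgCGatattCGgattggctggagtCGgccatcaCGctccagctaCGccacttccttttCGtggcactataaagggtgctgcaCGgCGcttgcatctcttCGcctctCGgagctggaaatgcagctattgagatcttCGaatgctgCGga

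The CNOT6 window holds 36 CG pairs, a number reached by 12.7% of the 35116 promoters in the same table. The BTG1 window holds 22, reached by 37.7%, and the median promoter holds 14. More CG pairs than in CNOT6 occur in a window of TOB1 (45) and in a window of CNOT6L (40). Neither of these genes was called in any comparison, and another TOB1 window holds 3. Of the 5 motifs searched on both strands, the CNOT6 window holds the CCAAT box CCAAT (in 34.6% of all promoters) and the GC box GGGCGG (45.0%). The BTG1 window holds these and the TATA box TATAAA (11.5%). Neither holds the E-box CACGTG (7.26%) or the cyclic AMP response element TGACGTCA (1.85%). These matches are descriptions of the letters, and no methylation was measured here.

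Estimated depth lay between 20700000 and 40900000 reads per library, and no library had fewer than an estimated 222 reads for any of the 10 genes. Correlations between libraries of log2 values over the tested genes were 0.952 to 0.957 within groups and 0.890 to 0.954 between groups. All 8 promyelocytic markers (such as MPO, ELANE and CD33) were detected, with summed normalised read counts of 90690 to 100990 in the combination, 166556 to 206808 in decitabine, 110152 to 125293 in RG3039 and 173302 to 209706 in DMSO. MPO made up most of these sums, and the other 7 markers summed to 21471 to 26350 in the combination, 45075 to 48731 in decitabine, 29985 to 32536 in RG3039 and 42303 to 44126 in DMSO. They did not all move alike. ELANE in RG3039 overlapped DMSO, at 13333 and 15095 against 12161 and 13520. CTSG had 6653 and 8546 in decitabine, against 4468 and 3016 in DMSO. Lymphoid markers (4 of 5 detected, MS4A1 at 0) summed to 249 to 360 in the combination, 128 to 180 in decitabine, 34.9 to 107 in RG3039 and 30.2 to 46.9 in DMSO. Epithelial and stromal markers summed to 3167 to 3567, 656 to 879, 1687 to 1905 and 637 to 686 in the same 4 groups. Nearly all of this was PECAM1, which myeloid cells also express, and the other 5 markers summed to 81.9 to 107 in the combination, 57.6 to 91.3 in decitabine, 30.2 to 54.2 in RG3039 and 54.6 to 78.0 in DMSO. Erythroid markers (HBB at 0) summed to 87.3 to 202, 228 to 234, 149 to 270 and 60.9 to 190. Some of these sums differed between treatments, as did some of the genes described here, and other sums overlapped DMSO. The part of the marker changes in the results was not tested. In such bulk RNA, fewer cells of a kind and less RNA per cell cannot be told apart.

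Levels are given as normalised read counts, which are comparable for 1 gene between libraries but not between genes. Differences are log2 fold changes of (value + 1) with their standard errors (SE) from a limma fit to 17534 genes, and a gene was called where p, adjusted by Benjamini-Hochberg over all of them, was under 0.05. Of the 10 genes, 4 were called in the combination against DMSO, 2 higher and 2 lower, where 24.1% of all genes were called, 11.4% higher and 12.7% lower. In RG3039 against DMSO 4 were called, again 2 higher and 2 lower, where 8.12% of all genes were called, 4.53% higher and 3.59% lower. Decitabine against DMSO gave 1 call, which was higher, where 2.14% of all genes were called, 1.74% higher and 0.405% lower. The groups did not overlap for 8, 7 and 7 of the 10 genes in the combination, RG3039 and decitabine against DMSO, set beside the 62.8%, 51.9% and 46.8% over all genes. The median log2 fold change of the 10 genes was −0.09 in the combination, −0.03 in RG3039 and −0.17 in decitabine, beside medians over all genes of 0.04, −0.00 and 0.01. These 3 comparisons share the DMSO libraries.

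**Figure D1:**
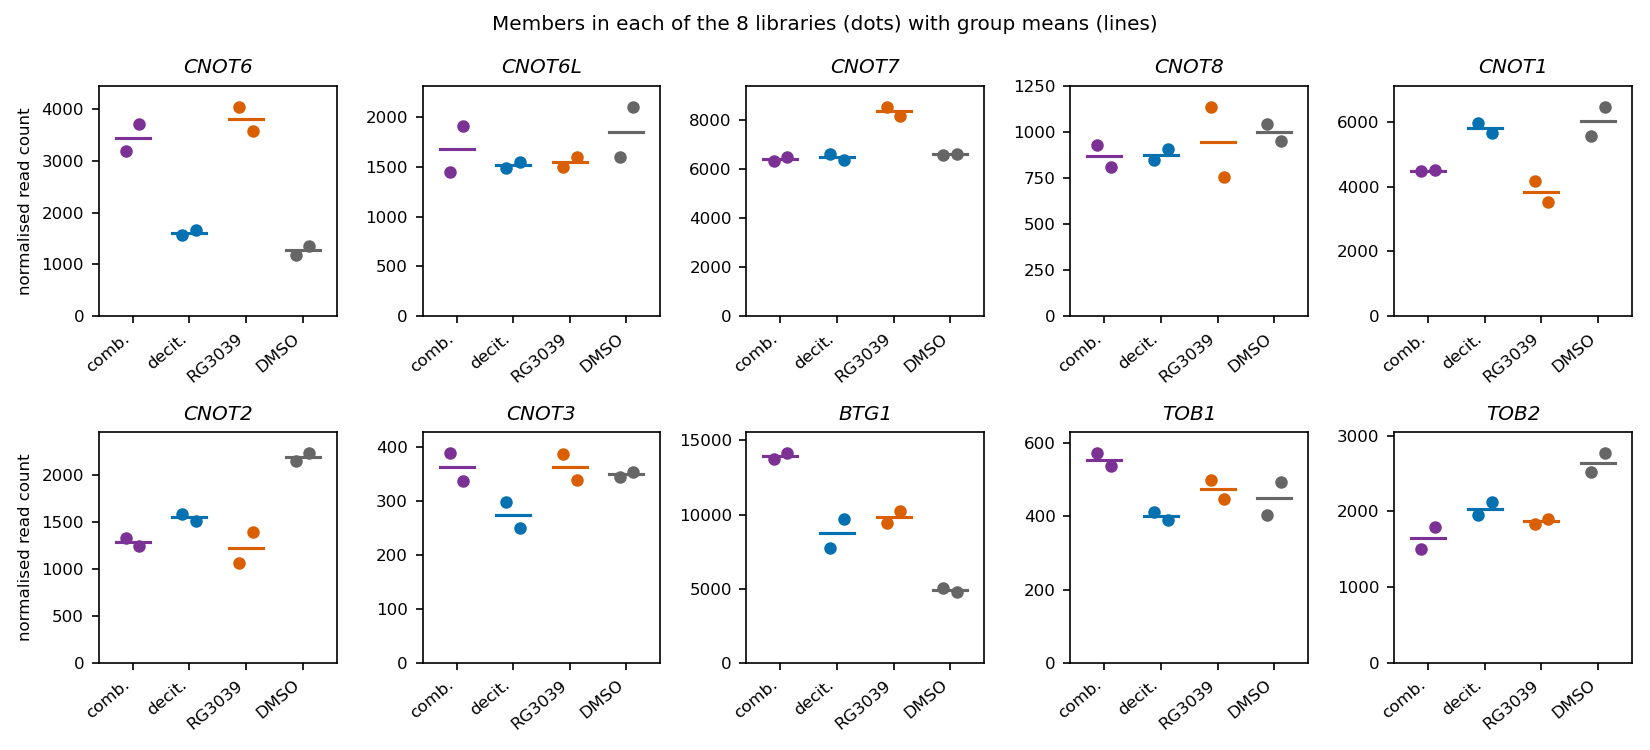
Normalised read count (linear axes from 0) of each of the 10 genes in each library, with points for the libraries and a line for the mean of the 2 replicates, in the order combination, decitabine, RG3039, DMSO. CNOT6 sits between 3192 and 4045 in the 4 libraries that received RG3039 and between 1175 and 1656 in the 4 that did not.

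Of the nucleases, CNOT6 had 3192 and 3709 normalised read counts in the combination, 1568 and 1656 in decitabine, 4045 and 3577 in RG3039, and 1175 and 1365 in DMSO. The 4 libraries with RG3039 were all above the 4 without it, the combination and RG3039 overlapped, and decitabine was just above DMSO. The means were 3450 ± 366 in the combination, 1612 ± 62.0 in decitabine, 3811 ± 331 in RG3039 and 1270 ± 134 in DMSO (SD, n = 2 each). CNOT6 rose 2.72-fold in the combination (log2 fold change 1.44, SE 0.16, adjusted p = 0.000289) and 3.002-fold in RG3039 (1.59, SE 0.16, adjusted p = 0.000750) against DMSO. It was also higher in the combination than in decitabine, 2.13-fold (1.09, SE 0.16, adjusted p = 0.00430), and lower in decitabine than in RG3039 (−1.24, SE 0.16, adjusted p = 0.00287). The combination and RG3039 differed by −0.14 (95% interval −0.49 to 0.20), and decitabine and DMSO by 0.35 (−0.00 to 0.70, adjusted p = 0.281), neither of them called. Without combination replicate 2 the call against decitabine was lost (adjusted p = 0.0530).

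The paralog CNOT6L, which fills the same place in the complex, had 1448 and 1917 in the combination, 1487 and 1548 in decitabine, 1502 and 1600 in RG3039, and 1600 and 2105 in DMSO. Groups next to each other in level all overlapped, although decitabine and RG3039 both lay below DMSO. The log2 fold change of CNOT6L against DMSO was −0.14 in the combination (95% interval −0.57 to 0.29) and −0.24 in RG3039 (−0.67 to 0.18). In decitabine it was −0.27 (−0.70 to 0.15), and none of these was called. The log2 ratio of CNOT6 to CNOT6L was therefore 1.14 and 0.95 in the combination, 0.08 and 0.10 in decitabine, 1.43 and 1.16 in RG3039, and −0.45 and −0.62 in DMSO. Only its change between libraries can be read, since the 3′ counts of different genes have no common scale. Of the 50-base stretches at annotated CNOT6L 3′ ends, 14.6% also occur in the pseudogene CNOT6LP1, which was listed at 0, whereas CNOT6 shared none with another gene.

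The CAF1-type nuclease CNOT7 had 6338 and 6496 in the combination, 6629 and 6374 in decitabine, 8539 and 8168 in RG3039, and 6559 and 6637 in DMSO. RG3039 alone was above the other 3 groups, which lay close together. The difference from DMSO was 0.34 in RG3039 (SE 0.12, adjusted p = 0.124), and that of the combination from RG3039 was −0.38 (SE 0.12, adjusted p = 0.135). Neither was called, although the first was with scaling by the total (adjusted p = 0.0470). Its paralog CNOT8 had 930 and 810 in the combination, 846 and 906 in decitabine, 1136 and 756 in RG3039, and 1046 and 954 in DMSO. The spread within RG3039 covered all other libraries, and no comparison was called. The log2 ratio of CNOT7 to CNOT8 was 2.77 and 3.002 in the combination, 2.97 and 2.81 in decitabine, 2.91 and 3.43 in RG3039, and 2.65 and 2.80 in DMSO.

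**Figure D2:**
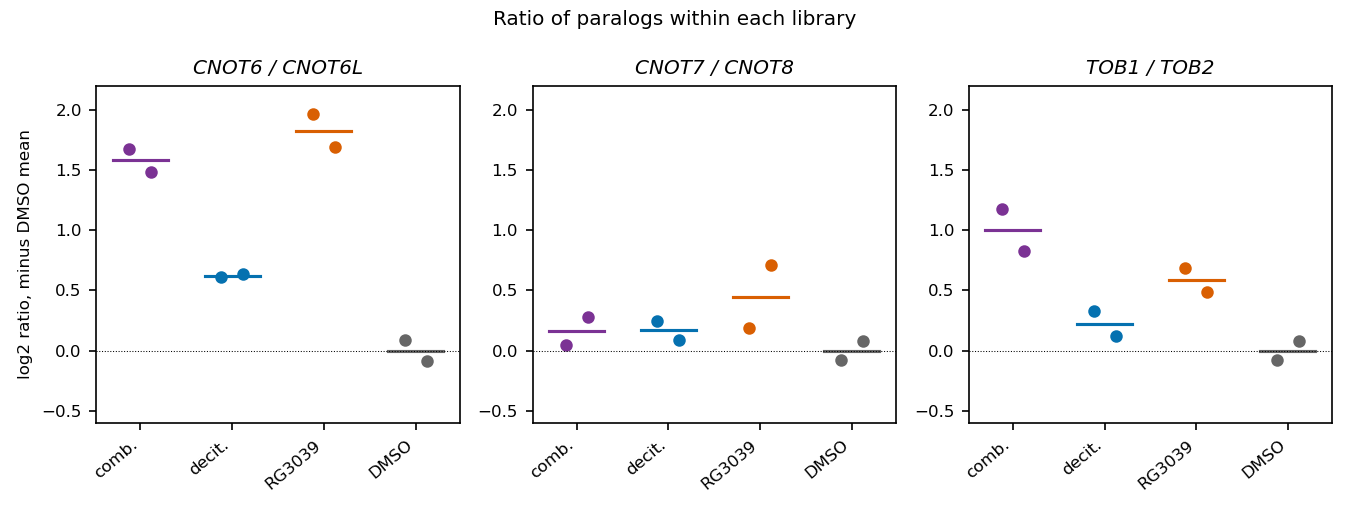
Log2 ratio of the normalised read counts of 3 pairs of paralogs in each library (points, with a line for the mean of a group), less the mean log2 ratio of the 2 DMSO libraries, in the order combination, decitabine, RG3039, DMSO. For CNOT6 over CNOT6L the 4 libraries with RG3039, whose log2 ratios before that subtraction are 0.95 to 1.43, lie above the 4 without it, at −0.62 to 0.10.

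Among the structural subunits, CNOT2 had 1329 and 1238 in the combination, 1587 and 1506 in decitabine, 1064 and 1386 in RG3039, and 2151 and 2227 in DMSO. All 6 treated libraries were below both DMSO libraries, with RG3039 and the combination overlapping and decitabine between them and DMSO. CNOT2 fell against DMSO in the combination (log2 fold change −0.77, SE 0.17, adjusted p = 0.00936) and in RG3039 (−0.85, SE 0.17, adjusted p = 0.0152), and decitabine differed by −0.50 without being called (95% interval −0.88 to −0.13, adjusted p = 0.158). The call in the combination was lost without combination replicate 2 (adjusted p = 0.0654). The call in RG3039 was lost without RG3039 replicate 1 (0.113) or DMSO replicate 2 (0.0734), in a fit with no mean-variance trend (0.0755), and in one of just the compared groups (0.0786).

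CNOT1, the scaffold, had 4489 and 4516 in the combination, 5958 and 5656 in decitabine, 4171 and 3533 in RG3039, and 5579 and 6469 in DMSO. The 4 libraries with RG3039 were all below the 4 without it. CNOT1 fell in RG3039 against DMSO (−0.65, SE 0.14, adjusted p = 0.0244) and was higher in decitabine than in RG3039 (0.60, SE 0.14, adjusted p = 0.0471), while the combination differed from DMSO by −0.42 (95% interval −0.74 to −0.10, adjusted p = 0.0616) and was not called. Both calls were fragile. The first was lost without either RG3039 library (replicate 1, adjusted p = 0.0595; replicate 2, 0.167), DMSO replicate 2 (0.120) or either combination library (0.0526 and 0.0533), and with no trend (0.122) or just the compared groups (0.106), and the second without any 1 of the 6 libraries of the combination, decitabine and RG3039 (0.0902 to 0.244), with no trend (0.174), with just the compared groups (0.0953) and with no filter on low values (0.0812). The methyltransferase gene SETD6 overlaps CNOT1 on the other strand and had 157 and 195 in the combination, 316 and 345 in decitabine, 405 and 371 in RG3039, and 757 and 650 in DMSO. Whether reads were counted by strand is not given in the sources used for this work, so reads of overlapping genes cannot be told apart with certainty. Other members have such neighbours too. Among these, LINC01481 at CNOT2 was listed between 127 and 568, and LENG1 at CNOT3 between 349 and 413. CNOT3, the partner of CNOT2 in the module, had 389 and 337 in the combination, 299 and 251 in decitabine, 387 and 339 in RG3039, and 345 and 355 in DMSO. Only decitabine stood below the other groups, and the difference from DMSO was not called (−0.35, 95% interval −0.84 to 0.13, adjusted p = 0.426).

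Of the adaptors, BTG1 had 13757 and 14124 in the combination, 7729 and 9722 in decitabine, 9410 and 10256 in RG3039, and 5030 and 4740 in DMSO. All 6 treated libraries were above both DMSO libraries, the combination was above both single drugs, and decitabine and RG3039 overlapped. The means were 13941 ± 259 in the combination, 8725 ± 1410 in decitabine, 9833 ± 598 in RG3039 and 4885 ± 205 in DMSO (SD, n = 2 each). BTG1 rose against DMSO 2.85-fold in the combination (log2 fold change 1.51, SE 0.14, adjusted p = 0.000165), 1.78-fold in decitabine (0.83, SE 0.14, adjusted p = 0.0227) and 2.01-fold in RG3039 (1.01, SE 0.14, adjusted p = 0.00320). The combination was 1.61-fold higher than decitabine (0.69, SE 0.14, adjusted p = 0.0220) and 1.42-fold higher than RG3039, the last without being called (0.50, 95% interval 0.18 to 0.83, adjusted p = 0.102). The call in decitabine was lost without decitabine replicate 2 (adjusted p = 0.124), DMSO replicate 2 (0.104), or combination replicate 1 (0.0592) or 2 (0.0620), without the trend (0.143) and with only the compared groups (0.140). That of the combination over decitabine was lost without combination replicate 1 (0.124) or 2 (0.134), decitabine replicate 1 (0.118) or the trend (0.122). An antisense gene, AC025164.1, overlaps BTG1 and was listed between 10.8 and 65.2 in the 8 libraries. LINC01619 overlaps BTG1 on the same strand and was listed between 0 and 48.7.

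TOB2 had 1496 and 1790 in the combination, 1946 and 2118 in decitabine, 1836 and 1894 in RG3039, and 2524 and 2764 in DMSO. No 2 groups overlapped, in the order combination, RG3039, decitabine and DMSO from low to high. TOB2 fell in the combination against DMSO (−0.69, SE 0.15, adjusted p = 0.00988), and differed by −0.50 in RG3039 (95% interval −0.84 to −0.16, adjusted p = 0.0788) and by −0.38 in decitabine (−0.72 to −0.04, adjusted p = 0.232), neither of them called. The call was lost without combination replicate 1 (0.0933), DMSO replicate 2 (0.0517) or the trend (0.0525). Of the 50-base stretches at annotated TOB2 3′ ends, 18.6% occur also in AC007228.1. No level was found under that name, so it could not be set beside TOB2. TOB1 had 572 and 537 in the combination, 412 and 390 in decitabine, 499 and 449 in RG3039, and 405 and 493 in DMSO. The combination was above the other groups, but its difference from DMSO was not called (0.31, 95% interval −0.13 to 0.75, adjusted p = 0.297). The log2 ratio of TOB1 to TOB2 was −1.38 and −1.74 in the combination, −2.24 and −2.44 in decitabine, −1.88 and −2.07 in RG3039, and −2.64 and −2.48 in DMSO.

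**Figure D3:**
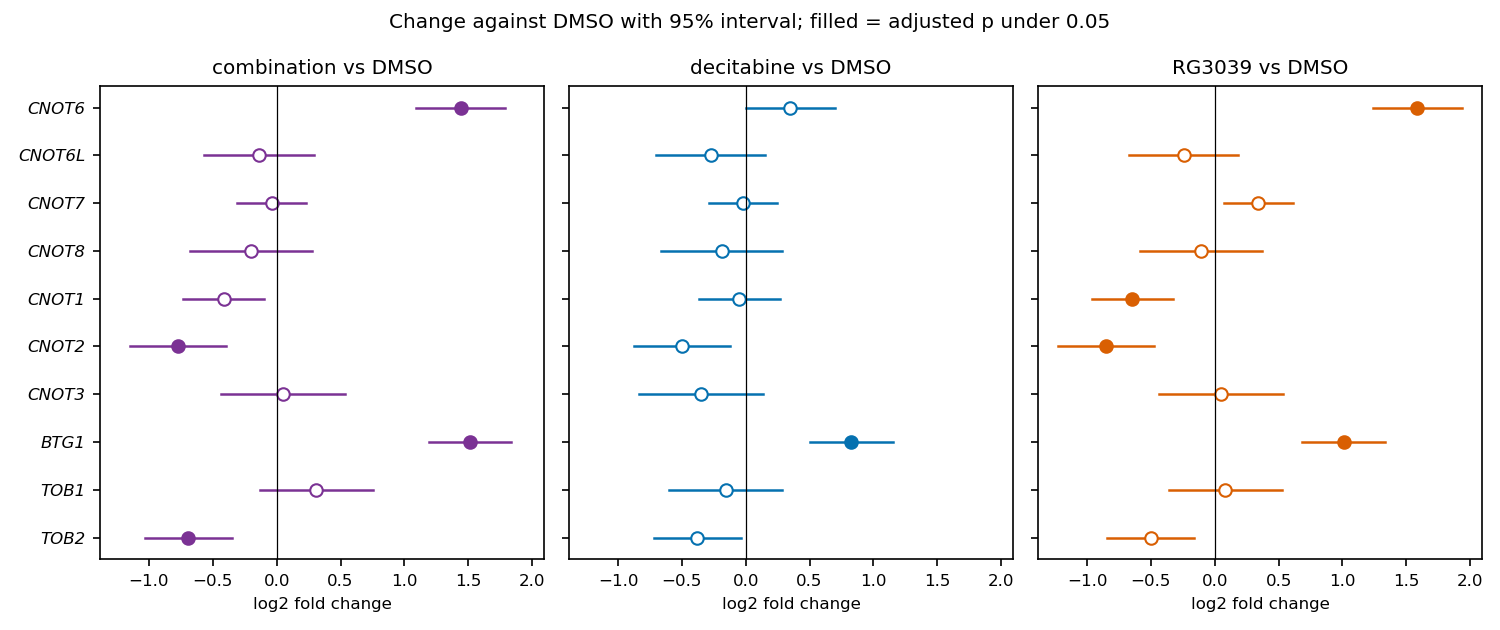
Log2 fold changes of the 10 genes with 95% intervals from the limma fit, for the combination, decitabine and RG3039 against DMSO. Filled points passed an adjusted p of 0.05: BTG1 is filled in all 3 comparisons, and CNOT6 (1.44 and 1.59) and CNOT2 (−0.77 and −0.85) in the combination and RG3039. TOB2 (−0.69) is filled in the combination only, and CNOT1 (−0.65) in RG3039 only.

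Between treatments, 2 of the 10 genes were called in the combination against decitabine, both higher (CNOT6 and BTG1), where 7.33% of all genes were called, 3.94% higher and 3.39% lower. In decitabine against RG3039 CNOT1 was higher and CNOT6 lower, where 4.6% of all genes were called, 2.67% higher and 1.92% lower. In the combination against RG3039 limma called 0 of the 10 (2 at an unadjusted p under 0.05, BTG1 and CNOT7), where 2.28% of all genes were called. The interaction, the log2 difference of the combination from decitabine less that of RG3039 from DMSO, tests whether the response to both drugs differs from what the single drugs add up to. limma called 0 of the 10 genes in it, and 0% of all genes, with 1 of the 10 and 1014 of 17534 at an unadjusted p under 0.05. That gene was CNOT2 (0.58, SE 0.24, 95% interval 0.05 to 1.11, adjusted p = 0.854). For CNOT6 the interaction was −0.49 (−0.99 to 0.00) and for BTG1 −0.32 (−0.78 to 0.13), and neither interval excludes 0.

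The genes whose log2 levels followed CNOT6 and BTG1 most closely over the 8 libraries were taken from 15437 genes, as a description. The libraries come from 4 treatments, so each r rests mainly on 4 levels. For CNOT6 they were PINK1, a mitochondrial kinase that marks damaged mitochondria (Pearson r 0.993), AC100803.3 (0.992), AL121603.2 (0.991), COMMD4, a COMM domain protein (0.989), and CNTROB, a centriole protein (0.989). PINK1 had 1385 and 1455 in the combination, 572 and 653 in decitabine, 1852 and 1695 in RG3039, and 473 and 565 in DMSO, the same order of groups as CNOT6. For BTG1 they were HINT2, a mitochondrial hydrolase (0.997), the cyclooxygenase gene PTGS2 (0.993), ASB2, a ubiquitin ligase subunit (0.993), NFKB2, which encodes an NF-κB subunit precursor (0.992), and the MAP kinase phosphatase gene DUSP4 (0.991). PTGS2 had 630 and 580 in the combination, 155 and 224 in decitabine, 200 and 275 in RG3039, and 64.2 and 55.8 in DMSO, again with all treated libraries above DMSO.

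The wider machinery of deadenylation was read from 6 lists with 71 genes, of which 65 were tested. In the combination against DMSO 14 of the 65 were called, 4 higher and 10 lower, which is 21.5%, beside 24.1% of all genes. Decitabine gave 1 higher (1.54%, beside 2.14% of all genes called) and RG3039 gave 3 lower (4.62%, beside 8.12%). The combination against decitabine gave 2 higher and 2 lower (6.15%, beside 7.33%), and decitabine against RG3039 1 higher (1.54%, beside 4.6%). In the combination against RG3039 limma called 0 of the 65 (16 at an unadjusted p under 0.05), beside 2.28% of all genes. These shares lay near or below those of all genes. The comparisons share libraries, and the gaps were not tested. Of 23 pairs of a named gene and a comparison, 7 stayed called whichever of the 8 libraries was left out. All 7 were in the combination against DMSO. In a fit with no mean-variance trend the calls of CNOT9, PAIP1, LARP4, AGO4 and PUM2, those of TOE1 and PABPN1 in RG3039, that of PNLDC1 in decitabine, and those of PABPN1, PABPC4 and CPEB4 in the combination against decitabine were lost (adjusted p 0.0605 to 0.143). With just the compared groups those of LARP4, of TOE1, PABPN1 and CPEB3 in RG3039, of PNLDC1 in decitabine and of PUM2 against decitabine were lost (0.0658 to 0.152).

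Among poly(A)-binding proteins and their partners 0 rose (beside 11.4% of all genes) and 5 of 11 fell (45.5%, beside 12.7%) in the combination against DMSO. Their median log2 fold change was −0.74, beside 0.04 over all genes. PABPN1, the nuclear poly(A)-binding protein, had 3726 and 3607 in the combination, 6769 and 6443 in decitabine, 6322 and 5117 in RG3039, and 9732 and 9749 in DMSO. Every treated library was below DMSO, and the combination was below the rest. PABPN1 fell in the combination (−1.41, adjusted p = 0.000192) and in RG3039 (−0.78, adjusted p = 0.00974) against DMSO, the last lost without RG3039 replicate 2 (0.0882), and was lower in the combination than in decitabine (−0.85, adjusted p = 0.00817), which was lost without combination replicate 1 (0.0651) or 2 (0.0739) or decitabine replicate 1 (0.0559). The cytoplasmic PABPC4 had 4653 and 4812 in the combination, 7563 and 7145 in decitabine, 7364 and 6326 in RG3039, and 9481 and 8813 in DMSO. It fell in the combination against DMSO (−0.95, adjusted p = 0.00105) and was lower there than in decitabine (−0.64, adjusted p = 0.0215), the last lost without any 1 of those 4 libraries (0.0651 to 0.147). LARP4B, an RNA-binding partner of PABPC1, fell too (−1.21, adjusted p = 0.00271), as did PAIP1, a PABP-interacting translation factor (−0.92, adjusted p = 0.0235), and LARP4 (−0.85, adjusted p = 0.0283), which is named beyond the 4 with the smallest p. The call of PAIP1 was lost without combination replicate 1 (0.0545) or 2 (0.141) or DMSO replicate 1 (0.132), and with scaling by the total (0.0631), and that of LARP4 without combination replicate 1 (log2 fold change −0.46, adjusted p = 0.195) or DMSO replicate 2 (0.140). PABPC1 itself differed by −0.26 (95% interval −0.57 to 0.06) and was not called.

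Of the other deadenylases 1 of 9 rose (11.1%, beside 11.4% of all genes) and 2 fell (22.2%, beside 12.7%) in the combination against DMSO. TOE1, a nuclear deadenylase that matures small nuclear RNAs, had 244 and 265 in the combination, 417 and 482 in decitabine, 404 and 297 in RG3039, and 645 and 774 in DMSO. It fell in the combination (−1.47, adjusted p = 0.00183) and in RG3039 (−1.03, adjusted p = 0.0252), the last lost without RG3039 replicate 2 (0.160) or DMSO replicate 2 (0.138). PDE12, a mitochondrial deadenylase, fell in the combination (−0.72, adjusted p = 0.0159), a call lost without combination replicate 1 (0.0896) or 2 (0.0689) or DMSO replicate 2 (0.0908). PNLDC1, a PARN-like exonuclease that trims piRNA precursors in the germ line, had 210 and 251 in the combination, 163 and 223 in decitabine, 30.9 and 18.3 in RG3039, and 0 and 7.55 in DMSO. The 4 libraries with decitabine were far above the others, and PNLDC1 in RG3039 alone was above DMSO without being called (adjusted p = 0.0565). It rose in the combination (adjusted p = 0.000896) and in decitabine (adjusted p = 0.00808), the last lost without decitabine replicate 1 (0.0720) or 2 (0.0940). A fold against DMSO is not given, since 1 of its libraries was at 0.

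The other BTG gene with a call was BTG2, the closest relative of BTG1, with 261 and 233 in the combination, 160 and 85.2 in decitabine, 134 and 84.4 in RG3039, and 75.7 and 58.9 in DMSO. All treated libraries were above DMSO. BTG2 rose in the combination (1.87, SE 0.39, adjusted p = 0.00762), a call lost without combination replicate 1 (0.0586). Of 5 further subunits and partners of CCR4-NOT, CNOT9, which binds adaptor proteins, fell in the combination (−0.86, adjusted p = 0.0107). It had 1575 and 1689 in the combination, against 2411 and 3655 in DMSO, and the call was lost without combination replicate 1 (0.0750) or DMSO replicate 2 (log2 fold change −0.56, adjusted p = 0.0516). CNOT4, CNOT10, CNOT11 and TNKS1BP1 differed by −0.17, 0.11, −0.22 and −0.56 and were not called.

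The list of adaptors that recruit CCR4-NOT and of its effectors had 31 tested genes. Of these, 2 rose (6.45%, beside 11.4% of all genes) and 1 fell (3.23%, beside 12.7%) in the combination against DMSO. ZFP36L2, which binds AU-rich elements, had 2558 and 2518 in the combination, 5875 and 4115 in decitabine, 6025 and 3424 in RG3039, and 8196 and 6673 in DMSO. It fell in the combination (−1.54, adjusted p = 0.00278). CPEB4, which binds cytoplasmic polyadenylation elements, had 1030 and 913 in the combination, 430 and 540 in decitabine, 531 and 617 in RG3039, and 427 and 479 in DMSO. Both libraries of the combination stood above all others, and CPEB4 rose against DMSO (1.10, adjusted p = 0.00397) and was higher than in decitabine (1.01, adjusted p = 0.0178), the last lost without combination replicate 1 (0.133) or 2 (0.0835) or decitabine replicate 1 (0.106). PUM2, a Pumilio protein, rose in the combination against DMSO (0.52, adjusted p = 0.0242) and was higher than in decitabine (0.57, adjusted p = 0.0394), calls lost without any 1 library of the groups compared (0.0567 to 0.135 and 0.0873 to 0.208) and, for decitabine, also without either RG3039 library (0.0644 and 0.0651). CPEB3 fell in RG3039 against DMSO (−1.52, adjusted p = 0.0480), and AGO4, an Argonaute, was higher in decitabine, at 2272 and 1349, than in RG3039, at 418 and 322 (2.25, adjusted p = 0.0324). The call of CPEB3 was lost without any 1 of the 8 libraries (0.0688 to 0.226) and that of AGO4 without any 1 of the 4 compared (0.0844 to 0.206). Of 7 tested poly(A) and terminal nucleotidyl polymerases, TENT5C, a non-canonical poly(A) polymerase, fell in the combination (−0.79, adjusted p = 0.0111), a call lost without combination replicate 2 (0.0735) or DMSO replicate 1 (0.0576).

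**Figure D4:**
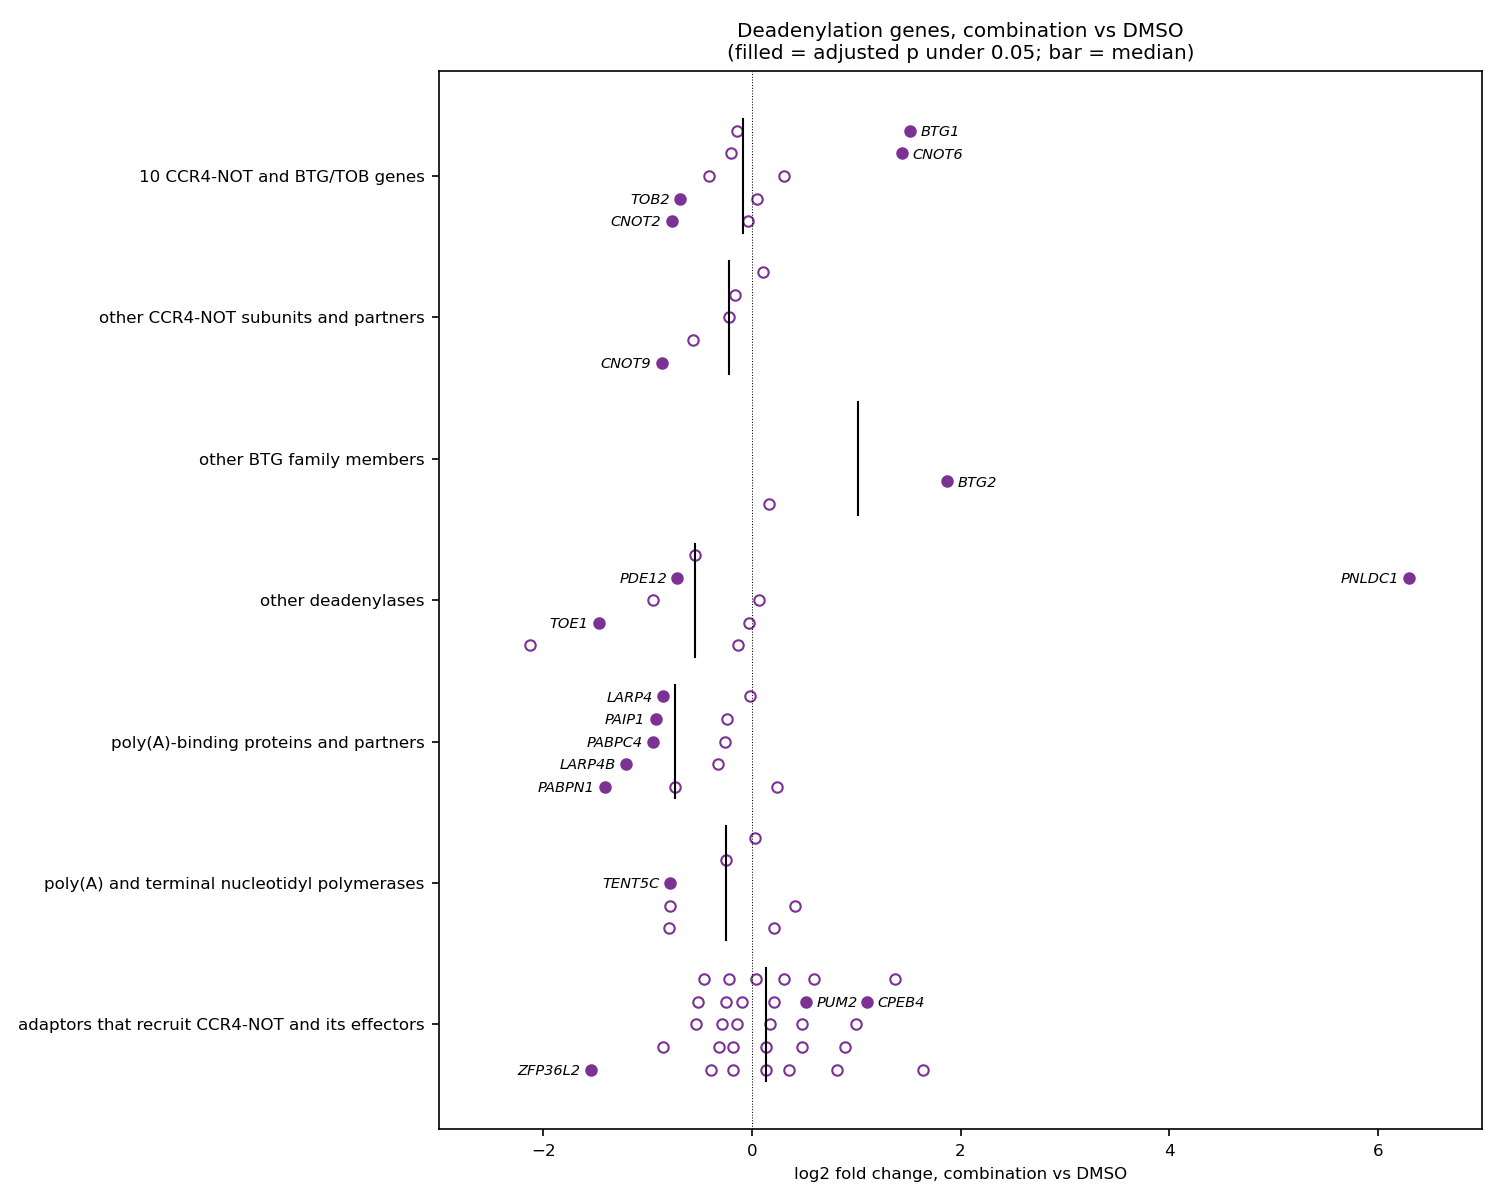
Log2 fold changes in the combination against DMSO of the 10 genes and of the 65 tested genes of the 6 deadenylation lists (horizontal axis), by list. Filled points passed an adjusted p of 0.05 and the vertical bar is the median of a list: 5 of 11 poly(A)-binding proteins and partners are filled, all below 0.

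The 10 are protein-coding genes that lie apart from each other, at the following positions in GENCODE 29 on GRCh38. Identifiers are those of the deposited table, whose version suffixes are later than in GENCODE 29 for all but CNOT6L and CNOT8. CNOT6 spans bases 180494412 to 180578405 and CNOT8 bases 154857553 to 154876793 of chromosome 5, both on the plus strand (ENSG00000113300.13 and ENSG00000155508.13). CNOT2 spans bases 70242994 to 70354993 on the plus strand and BTG1 bases 92140278 to 92145897 on the minus strand of chromosome 12 (ENSG00000111596.13 and ENSG00000133639.6). CNOT1 lies on chromosome 16 (58519951 to 58629886, minus, ENSG00000125107.18), CNOT3 on chromosome 19 (54137717 to 54155708, plus, ENSG00000088038.19) and CNOT6L on chromosome 4 (77713387 to 77819615, minus, ENSG00000138767.13). CNOT7 lies on chromosome 8 (17224964 to 17246878, minus, ENSG00000198791.12), TOB1 on chromosome 17 (50862223 to 50867978, minus, ENSG00000141232.5) and TOB2 on chromosome 22 (41433492 to 41447023, minus, ENSG00000183864.5).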

How the data were processed

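RNA of 8 HL-60 libraries (QuantSeq 3′ FWD, single-end 50 bp) was measured. The table deposited by the authors holds a signal, the normalised read count, for each of 60240 genes. Per the submitters' processing notes, Salmon 1.2.1, STAR, featureCounts, DESeq2 and limma were used with the build hg38, and the step that made the values is not stated. Low values were whole multiples of the value of 1 read (0.702 to 1.51 per library, tolerance 0.02) in 74.4% to 80.8% of genes, so depth was estimated from that step and no count test was run.

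Genes with a mean of at least 10 (17534) were fitted as log2(value + 1) with limma 3.58.1 in R 4.3.3 (eBayes with trend, 1 mean per group, 4 residual and 5.51 prior degrees of freedom). The tests were two-sided, and p was adjusted by Benjamini-Hochberg within each of 7 contrasts. The script was tested on simulated data.

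The 10 genes, the lists and the tests were chosen with earlier results of these data known. From each list the called genes with a mean of at least 20 were named, at most the 4 with the smallest p per contrast, LARP4 being added after its value was seen. Genes alike were the 5 with the highest Pearson r. Alternatives were other pseudocounts, filters, scalings and variance models, the replicate block, only the compared groups, and leaving out each library. RefSeq promoters were matched by symbol. Of the 10 genes 8 had a promoter entry, and CNOT1 and CNOT7 had none. Of 10 symbols, all matched in GENCODE 29. Tables were read in Python 3.11.15 (numpy 2.4.6, pandas 2.3.3), with figures by matplotlib 3.10.9.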

Additional observations from a re-analysis of the deposited data

How the results depend on the processing

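CNOT6 kept its call against DMSO in the combination (adjusted p 0.000120 to 0.00846 over 18 alternatives) and in RG3039 (0.000312 to 0.0227), and in decitabine against RG3039 (0.00168 to 0.0368). BTG1 kept it against DMSO in the combination (6.51e-05 to 0.00741) and in RG3039 (0.00141 to 0.0472). No value of the 10 genes that was called reversed. Of the 10 genes, the number called was 4 in the combination against DMSO, 3 without the trend, and 3 to 4 without 1 library. It was 4 in RG3039, 2 without the trend or with only the compared groups, and 2 to 4 without 1 library. It was 1 in decitabine, 0 without the trend or with only the compared groups, and 0 to 1 without 1 library. In the combination against decitabine it was 2, 1 without the trend, and 0 to 2 without 1 library. In decitabine against RG3039 it was 2, 1 without the filter, without the trend or with only the compared groups, and 1 to 2 without 1 library. The count stayed at 0 in the combination against RG3039 and in the interaction, for which a fit of only the compared groups is the same fit. The cause of these shifts was not tested.

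Replicate numbers were not taken to pair the samples: deviations of same-numbered libraries correlated at −0.08 to 0.16, with 3 of 6 pairs of groups over 0.1. With the replicate number as a block, 5 genes were called in RG3039 against DMSO, TOB2 joining (adjusted p = 0.0477), and CPEB3 lost its call there (0.0562). Scaling by the total moved the median of all genes by 0.14 in the combination, 0.12 in decitabine and 0.08 in RG3039 against DMSO, and called CNOT7 in RG3039 (0.0470). Over all genes the calls ranged, across other settings and without 1 library, from 2133 to 4619 in the combination against DMSO (4221 as reported), 79 to 525 in decitabine (376), 481 to 1690 in RG3039 (1424), 305 to 1678 in the combination against decitabine (1286), 21 to 688 in the combination against RG3039 (399), 283 to 973 in decitabine against RG3039 (806) and 0 to 2 in the interaction (0).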
